A study of Mus musculus with 8 samples.

Results

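The SLC25 family is the set of mitochondrial carriers, and its genes were taken as every gene of the array whose current symbol starts with Slc25a. Of 18194 genes read by the array, 44 met this rule, covered by 93 probesets, the groups of short probes that each read a stretch of a transcript. RNA came from whole hearts of 4 SRC-2 KO and 4 WT male mice on a mixed C57B/6Jx129Sv background, fed ad libitum, 1 mouse per array, with an age of 10 to 12 weeks in the labels and a wider range in the methods. The KO animals lack the coactivator SRC-2 and the WT animals are littermates without the deletion. How the deletion was built is not given in the sources used here, and since whole hearts were used, a change in the number of cells of a type and a change in the RNA per cell cannot be told apart in any value below.

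Carriers of this family sit mostly in the inner mitochondrial membrane. Each carrier folds from repeats of a pair of helices into a transporter that exchanges solutes between matrix and cytosol. They bring ADP and phosphate to ATP synthase and send ATP out, pass acylcarnitines to fatty acid oxidation, run the malate-aspartate shuttle that moves reducing equivalents into the matrix, and supply iron, amino acids, nucleotides and cofactors. In cardiac muscle the ADP/ATP carrier Slc25a4 and the phosphate carrier Slc25a3 are well known as abundant proteins of the energy supply. The genes were grouped by the substrate carried, from general knowledge, and a group name for a carrier whose substrate is debated is only a working name.

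Starts of transcription were looked up for the 3 genes with the smallest p in the comparison below and for the phosphate carrier, to show what lies just before them. Promoters of 34 of the 44 genes were matched by symbol in the RefSeq promoter table of build GRCm38.p6, and the 250 bases before each start were searched on both strands for 4 motifs, those of NRF1 (GCGCNTGCG), of the ERR receptors (TNAAGGTCA), of GABPA (CCGGAAGT) and of YY1 (AAGATGGCG), which do not overlap one another in the windows printed. The sequences are those of Slc25a22 at chr7:141437875-141438124 (minus strand, the outermost of 3 listed starts), Slc25a29 at chr12:108835877-108836126 (minus strand), Slc25a20 at chr9:108661886-108662135 (plus strand) and Slc25a3 at chr10:91123968-91124217 (minus strand). They run 5′ to 3′ up to the base before the start, and capitals mark motif matches.
Slc25a22: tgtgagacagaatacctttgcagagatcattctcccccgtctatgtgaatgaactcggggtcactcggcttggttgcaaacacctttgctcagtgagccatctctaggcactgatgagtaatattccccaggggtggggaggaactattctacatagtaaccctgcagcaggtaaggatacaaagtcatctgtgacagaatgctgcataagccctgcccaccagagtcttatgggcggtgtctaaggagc
Slc25a29: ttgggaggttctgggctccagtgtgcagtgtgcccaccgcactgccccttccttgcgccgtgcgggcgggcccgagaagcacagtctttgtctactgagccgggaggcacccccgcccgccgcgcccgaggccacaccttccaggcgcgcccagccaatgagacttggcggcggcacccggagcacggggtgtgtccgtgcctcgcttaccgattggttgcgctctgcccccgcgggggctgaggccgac
Slc25a20: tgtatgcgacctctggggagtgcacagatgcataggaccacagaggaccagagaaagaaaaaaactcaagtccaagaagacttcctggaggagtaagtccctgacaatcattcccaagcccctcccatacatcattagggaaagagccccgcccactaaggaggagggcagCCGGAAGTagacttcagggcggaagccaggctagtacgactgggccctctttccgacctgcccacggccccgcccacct
Slc25a3: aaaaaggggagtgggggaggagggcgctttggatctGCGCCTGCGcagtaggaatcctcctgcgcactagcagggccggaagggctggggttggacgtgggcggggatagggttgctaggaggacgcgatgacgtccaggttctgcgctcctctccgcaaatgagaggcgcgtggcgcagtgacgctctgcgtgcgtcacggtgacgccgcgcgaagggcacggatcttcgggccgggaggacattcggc
The capitals are a GABPA match that begins 79 bases before the start of Slc25a20 and an NRF1 match that begins 214 bases before that of Slc25a3, and the windows of Slc25a22 and Slc25a29 held none of the 4 motifs. Over the family, 2 of 34 genes, Slc25a3 and Slc25a31, had the NRF1 letters (5.88%, against 5.88% of all genes with a promoter in the table), 1 had the GABPA letters (3.23% of all genes), and 0 had the ERR letters (1.3%) or the YY1 letters (0.71%). These are matches of letters in 1 window, and no factor was measured.

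Ncoa2, the gene of SRC-2, served as the check of the labels. Its signal was 235 to 267 in the 4 KO hearts and 1660.3 to 2134 in the 4 WT hearts, so every heart matched its label. Median signals were 75.6 to 83.2 in KO arrays and 77.0 to 87.3 in WT arrays, and 36.9% to 40.7% of probesets of an array were under a signal of 50, taken here as near background. Defining genes of cardiac myocytes, among them Myh6 and Tnnt2, were bright in all hearts, with summed signals of 10 genes of 595250 to 757033 in KO and 505595 to 661479 in WT hearts, and all 10 had a higher mean in KO hearts. Of 16 atrial myocyte markers 14 had a lower mean in KO hearts (sums 63214 to 244263 in KO and 192543 to 319689 in WT), as had 13 of 13 fibroblast markers (106114 to 149356 in KO and 135586 to 218143 in WT), 9 of 10 endothelial markers (12956 to 17176 in KO and 16455 to 19931.5 in WT) and 11 of 11 macrophage markers (16776 to 20704 in KO and 21732 to 27638 in WT). No marker was listed at 0, and the part of these shifts in the values of the carriers was not tested.

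Slc25a22 was the 1 gene with an Slc25a symbol that passed, in 1 of the 2 fits used. Most of the 44 genes leaned to higher values in SRC-2 KO hearts without passing. Ucp3, a family member with another symbol that is given below, passed as lower in the same fit. The carriers counted here are those with Slc25a symbols. Of the 44 genes, 29 had a higher mean log2 signal in KO hearts and 15 a lower one, and their middle log2 fold change was 0.13, where 46.9% of all genes had a higher mean in KO hearts and the median of all genes was −0.03. Each gene was tested in limma, KO minus WT, at an adjusted p of 0.05 (Benjamini-Hochberg over the 18194 genes), in a common-variance fit, which draws each gene's spread toward 1 value, and a trended fit, which draws it toward that of genes of similar signal. In the common-variance fit 0 carriers passed, where 0.0055% of all genes passed as higher and 0.0165% as lower, and at an unadjusted p under 0.05 it had 7 carriers higher and 0 lower (3.95% and 6.09% of all genes). The random variance model test, which the methods name, also called 0 carriers. In the trended fit 1 carrier was higher and 0 were lower (0.121% and 0.253% of all genes), and at an unadjusted p under 0.05 11 were higher and 0 lower (5.33% and 7.22% of all genes). Ucp3, not counted here, was lower in the trended limma fit (log2 fold change −1.07, adjusted p = 0.0154). For 8 carriers each of the 4 KO hearts was above all 4 WT hearts, which was so for 3.12% of all genes, and for 0 they lay below (3.72% of all genes).

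**Figure D1:**
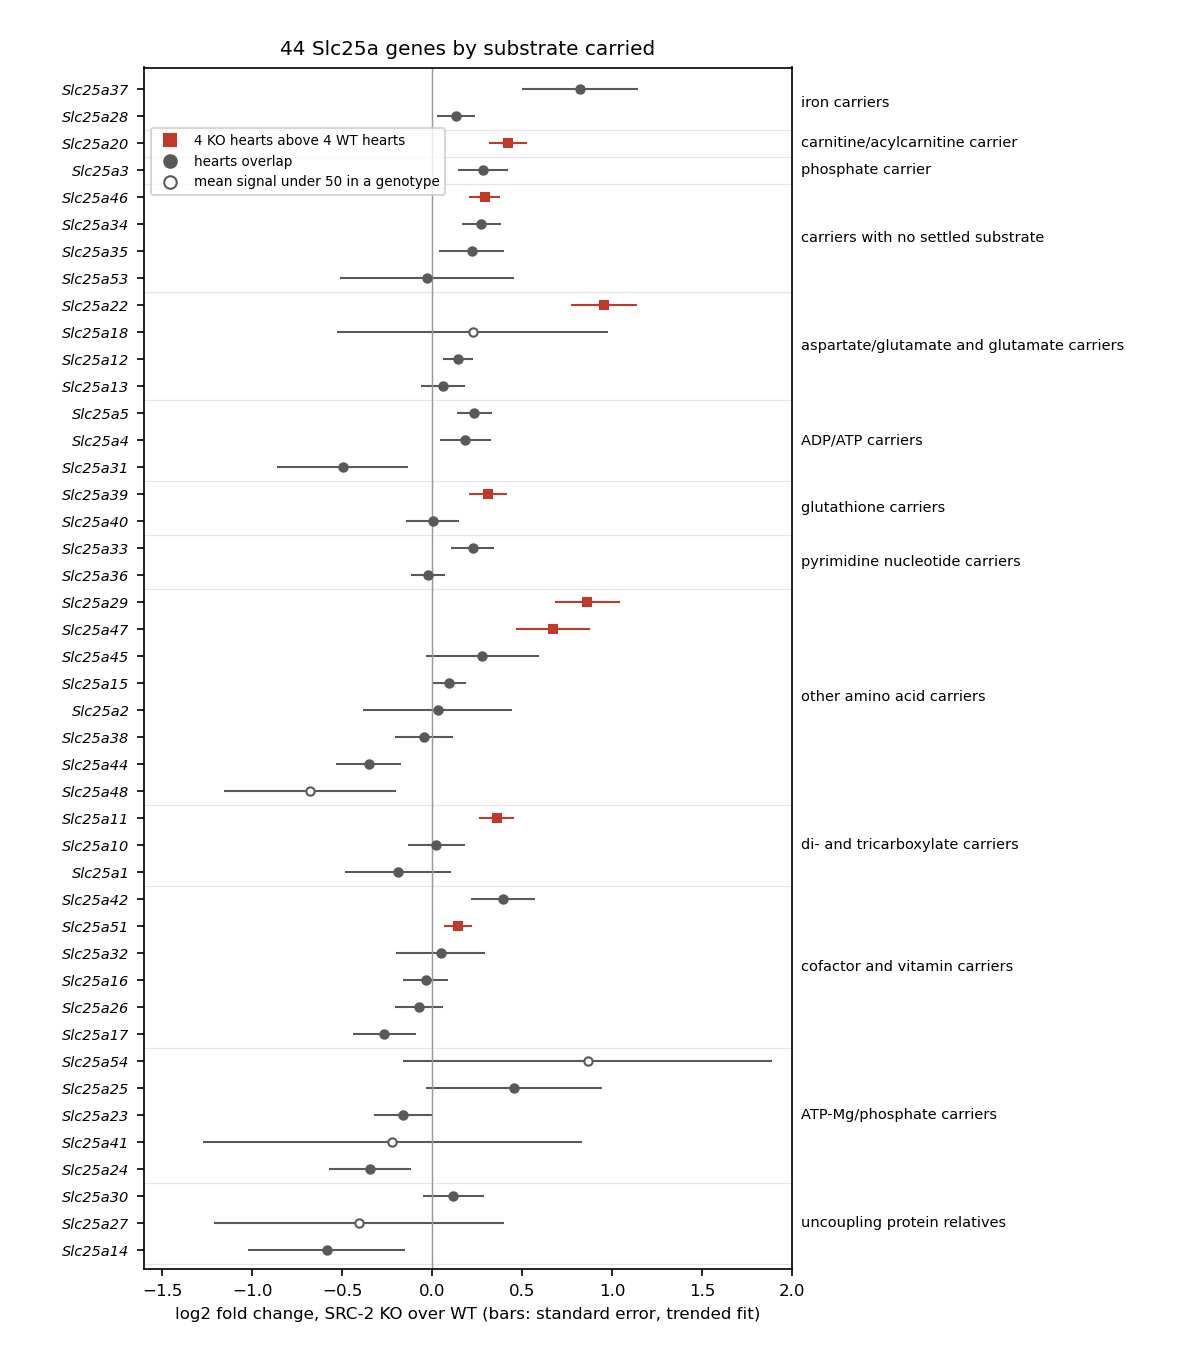
log2 fold change of SRC-2 KO over WT hearts for the 44 Slc25a genes, grouped by substrate, with bars of 1 standard error from the trended fit (4 hearts against 4). Squares mark the 8 genes whose KO hearts all lay above the WT hearts, circles mark genes whose hearts overlapped, and open circles mark the 5 genes with a mean signal under 50 in at least 1 genotype, 4 of which have the widest bars.

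Genes with a strong signal, carriers or not, more often had a higher mean in KO hearts. When all genes were ranked by mean signal and divided into 10 bins, the brightest bin held 1820 genes and 10 of the carriers. These carriers had a higher mean in KO hearts in 10 of 10 cases and a median of 0.26, and 5 had no overlap between genotypes. In the same bin, 68.8% of all genes had a higher mean in KO hearts, the median was 0.09, and 11.3% of genes had every KO heart above the WT hearts. Quantile normalization gave the family a median of 0.10, with 31 of 44 genes higher, and the median of all genes was 0.01. With signals under 50 set to 50 the family median stayed at 0.13 with 30 genes higher. In every setting tried more carriers had a higher than a lower mean in KO hearts.

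The carriers of glutamate and aspartate held the Slc25a gene that passed in the trended fit. Slc25a22 on chromosome 7 encodes a carrier that takes glutamate into the matrix together with a proton. Its signal was 1261, 720.3, 1294 and 1421 in the KO hearts, against 614, 547, 566 and 619 in the WT hearts. The lowest KO heart lay above the highest WT heart, although KO replicate 2 stood well below the other KO hearts. The means were 1174 ± 310.2 in KO and 587 ± 35.5 in WT hearts (SD, n = 4 each), and the difference between the means of the log2 signals, from which every fold change here is taken, was 0.96, a fold of 1.94 (standard error 0.18 and adjusted p = 0.0482 in the trended limma fit, 0.22 and adjusted p = 0.334 in the common-variance limma fit). It is read by a single probeset, so the array offers no second reading of the change. Without 1 heart at a time the trended adjusted p was between 0.00374 and 0.145, and the call held only without KO replicate 2 or KO replicate 4. It was also lost with quantile normalization (0.0525), array weights (0.0711), the mean of all probesets (0.119), signals under 50 set to 50 (0.228), the random variance model test and each gene's own variance (0.316 in both). Of its neighbours on the chromosome, Pidd1 next to it had a log2 fold change of 0.64 with no overlap (trended adjusted p = 0.461) and Cend1 on the other side −0.17.

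The other carriers of this group did not pass. Slc25a12, the calcium-regulated aspartate/glutamate carrier of muscle and brain, had 7175 to 8276 in KO and 6641 to 7667 in WT hearts (log2 fold change 0.14, trended adjusted p = 0.524). Its groups overlapped through KO replicate 4. Slc25a13, the related carrier of liver, had a log2 fold change of 0.06. Slc25a18, the paralogue of Slc25a22 with the same substrate, was near background, with 18.5 to 59.0 in KO and 11.6 to 89.2 in WT hearts.

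The enzymes that feed or use glutamate and aspartate were followed as a list of 15, of which 11 were measured. None passed in either limma fit, 9 had a higher and 2 a lower mean in KO hearts, and their median log2 fold change was 0.20. A higher mean in KO hearts was found for 46.9% of all genes and 68.8% of those in the brightest bin. At an unadjusted p under 0.05 in the trended fit, 5 were higher and 1 lower, where 5.33% and 7.22% of all genes were. Prodh, which starts the breakdown of proline toward glutamate, had 468.6 to 594.3 in KO and 299.3 to 407 in WT hearts, with no overlap (log2 fold change 0.60, trended adjusted p = 0.131). Aldh18a1, which starts proline synthesis from glutamate, had the opposite sign (log2 fold change −0.54, trended adjusted p = 0.171). Got1, the cytosolic aspartate aminotransferase, had 11285 to 18169 in KO and 11566 to 11983 in WT hearts, where KO replicate 4 lay below every WT heart (log2 fold change 0.40, trended adjusted p = 0.226).

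Among the di- and tricarboxylate carriers, 1 of 3 had every KO heart above the WT hearts, and none passed. Of all genes 3.12% had every KO heart above, and 11.3% of those in the brightest bin, which holds this carrier. Slc25a11, the oxoglutarate carrier, exchanges malate for oxoglutarate and so forms the malate-aspartate shuttle with Slc25a12. Its signal was 15182, 13998, 15868 and 12149.7 in KO hearts, against 11989, 10482, 11009 and 10964 in WT hearts. The groups did not overlap, with KO replicate 4 just above WT replicate 1 (a log2 difference of 0.36, standard error 0.10, with adjusted p = 0.148 in the trended and 0.423 in the common-variance limma fit). Without KO replicate 4 it passed in the trended fit (log2 fold change 0.43, adjusted p = 0.0383). The citrate carrier Slc25a1, which exports citrate for lipid synthesis, and the dicarboxylate carrier Slc25a10 had log2 fold changes of −0.19 and 0.02, and their hearts overlapped.

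The carnitine/acylcarnitine carrier Slc25a20, which passes fatty acids as carnitine esters into the matrix, was higher in every KO heart. Its signal was 9591, 10966, 10007 and 9249 in KO hearts, against 8668, 6235, 7689.9 and 7266 in WT hearts. The change was a fold of 1.34 and did not pass (log2 fold change 0.42 with a standard error of 0.11, adjusted p = 0.118 in the trended and 0.402 in the common-variance limma fit). A second probeset, marked in its name as shared by several transcripts, had 5391, 5896, 7254 and 5202 in KO hearts, against 3967, 3322, 3943 and 3743 in WT hearts, again with no overlap and a log2 fold change of 0.66 (two-sided p = 0.0286 by exact permutation, the smallest that 4 hearts against 4 allow).
Of the other steps of the carnitine shuttle, 4 of 6 listed genes were measured and none passed. Cpt2, which rebuilds acyl-CoA in the matrix, had 9825 to 12019 in KO and 7549 to 9123 in WT hearts, with no overlap (log2 fold change 0.38, trended adjusted p = 0.129), and Crat, the short-chain carnitine acetyltransferase, was also without overlap (log2 fold change 0.27, trended adjusted p = 0.196). Cpt1a, the liver-type isoform of the entry enzyme, had the opposite sign, at 865 to 1005 in KO and 978.5 to 1215 in WT hearts (log2 fold change −0.27, trended adjusted p = 0.302). No other isoform of the entry enzyme is among these 4 genes. Their summed signal, in which Cpt2 is the brightest gene, was 17270.1 to 19959.5 in KO and 13503 to 16179 in WT hearts. This sum does not show the opposite sign of Cpt1a.

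**Figure D2:**
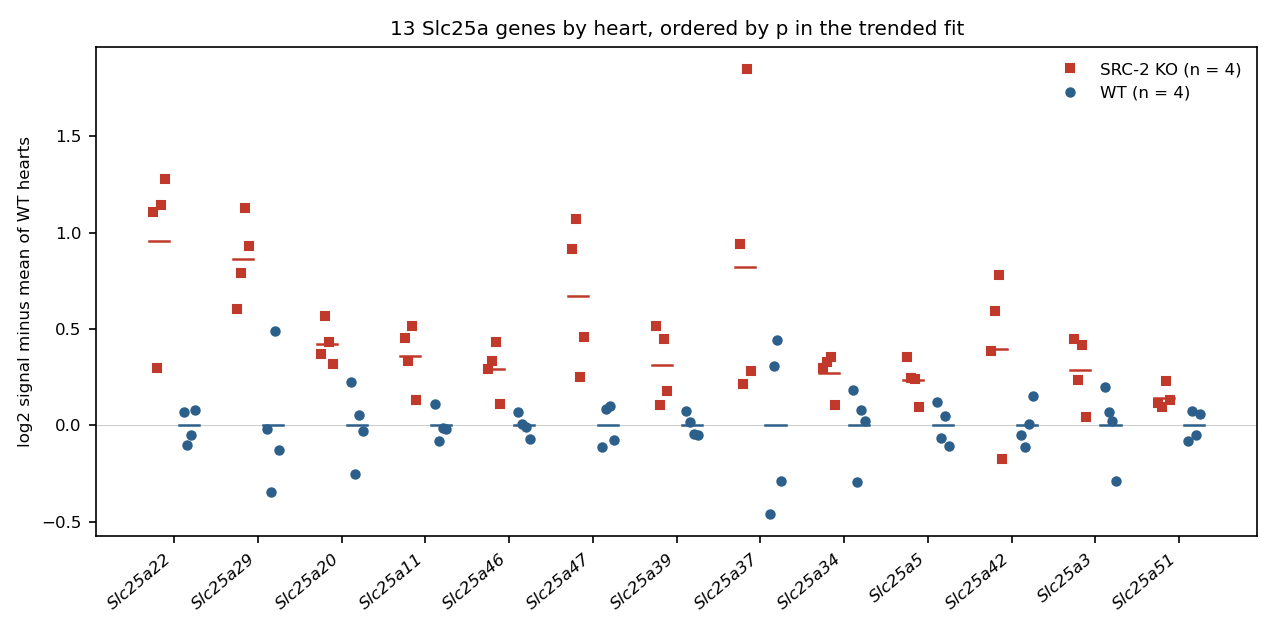
Distance of every heart from the WT mean, on the log2 scale, for the 13 Slc25a genes described heart by heart, ordered by p in the trended fit. Squares are SRC-2 KO hearts and circles WT hearts (n = 4 each), and short lines are group means. Slc25a22 and Slc25a29 have the largest gaps between group means among genes whose hearts do not overlap, and KO replicate 3 stands far above the rest for Slc25a37.

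Of the carriers that set the exchange of ADP, ATP and phosphate, the bright ones had slightly higher means in KO hearts and overlapped. Slc25a5, an ADP/ATP carrier of dividing and many other cells, had 27656, 25656, 25497 and 23049 in KO hearts, against 23493, 20663, 22315 and 20095 in WT hearts. The overlap came from KO replicate 4 alone, which lay below WT replicate 1 (log2 fold change 0.23 with a standard error of 0.10, adjusted p = 0.339 in the trended and 0.521 in the common-variance limma fit). Slc25a5 is read by 8 probesets, whose log2 fold changes ran from −0.01 to 0.32, and the probeset used is one that its name marks as liable to cross-hybridise, so reads of related ADP/ATP carriers cannot be separated with certainty. Slc25a4, the ADP/ATP carrier of heart and skeletal muscle, had 69148 to 93232 in KO and 59089.5 to 78906 in WT hearts (log2 fold change 0.18, trended adjusted p = 0.639). Slc25a31, the isoform of male germ cells, was dim, with 62.8 to 114 in KO and 74.8 to 163 in WT hearts.
Slc25a3, the phosphate carrier, had 72846, 62886, 71453 and 55154 in KO hearts, against 61307, 56124, 54258 and 43850.1 in WT hearts. Its hearts overlapped and the change did not pass (log2 fold change 0.29 with a standard error of 0.14, trended adjusted p = 0.429). After quantile normalization the log2 fold change was 0.10. Some of the ATP-Mg/phosphate carriers adjust the adenine nucleotide content of the matrix in response to calcium. The 5 carriers of this group had log2 fold changes of −0.35 to 0.87, and 2 of them were near background. Slc25a23 and Slc25a24 had −0.16 and −0.35. Slc25a25 varied widely within both genotypes, with 91.5 to 347 in KO and 74.7 to 348 in WT hearts.

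Slc25a29 came next after Slc25a22 by p in the trended fit, and it passed in neither fit. It encodes a carrier of basic amino acids such as arginine and lysine. Its signal was 639, 727, 918 and 801 in KO hearts, against 416, 330.5, 591 and 385 in WT hearts. The groups did not overlap, the fold was 1.82, and the change missed the threshold (log2 fold change 0.86 with a standard error of 0.18, adjusted p = 0.0712 in the trended and 0.335 in the common-variance limma fit). Its 5 probesets are assigned to the same gene and are not replicates, but they let the change be read more than once. The second brightest (log2 fold change 0.46) and the dimmest are marked in their names as liable to cross-hybridise.
Every KO heart was above every WT heart in 4 of these 5 probesets, with log2 fold changes of 0.86, 0.46, 0.90 and 1.41. The largest of these came from a probeset with 328, 323, 391 and 396 in KO hearts, against 90.3, 112, 156 and 208 in WT hearts. The dimmest probeset overlapped (log2 fold change 0.58), because KO replicate 1 had 85.3 there while the other KO hearts had 288, 412 and 289.

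**Figure D3:**
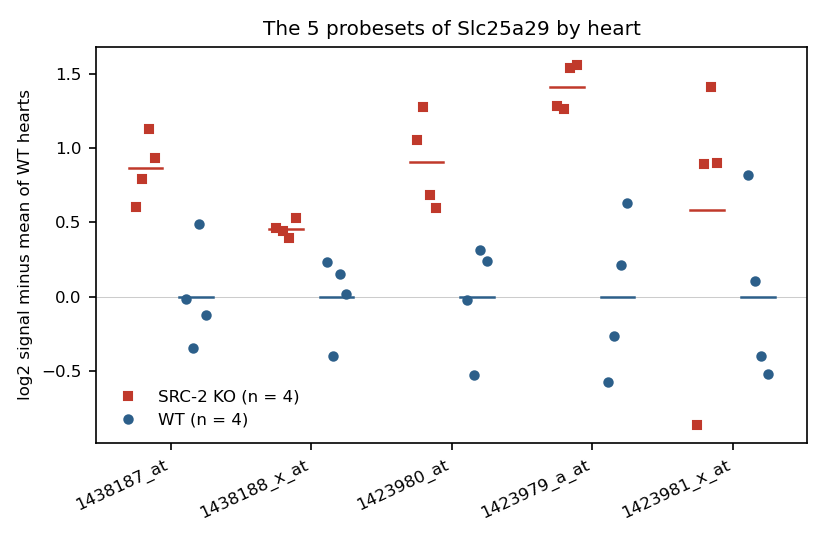
Distance of every heart from the WT mean, on the log2 scale, for the 5 probesets of Slc25a29, brightest at the left. Squares are SRC-2 KO hearts, circles are WT hearts (n = 4 each), with short lines at the group means. In 4 probesets the KO hearts sit higher than the WT hearts, and in the fifth KO replicate 1 lies below every WT heart.

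The gene next to Slc25a29 on chromosome 12 is another family member, Slc25a47, a carrier best known from liver whose substrate is debated. Its signal was 453, 506, 287 and 330.3 in KO hearts, against 223, 256, 258 and 229 in WT hearts. No KO heart reached down to the WT range, with KO replicate 3 closest to it (log2 fold change 0.67 with a standard error of 0.21, adjusted p = 0.183 in the trended and 0.399 in the common-variance limma fit). The only probeset of Slc25a47 is marked in its name as shared by several transcripts, so the array offers no other reading of the change. The nearest other protein-coding genes on either side of the pair, Yy1 and Wars, had log2 fold changes of 0.00 and 0.21 with overlapping hearts. The 6 remaining carriers of the amino acid group did not separate the genotypes. They included the ornithine carrier Slc25a15 of the urea cycle (log2 fold change 0.09), the glycine carrier Slc25a38 of heme synthesis (−0.05) and the branched-chain amino acid carrier Slc25a44. The last had 254 to 362 in KO and 310.4 to 429 in WT hearts (log2 fold change −0.35, trended adjusted p = 0.457), and its other probesets had 0.02 and 0.13. Slc25a2, an ornithine carrier, and Slc25a45 and Slc25a48, whose substrates are less settled, had log2 fold changes of 0.03, 0.28 and −0.68, the last near background.

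Slc25a37 and Slc25a28, the mitoferrins that import iron for heme and iron-sulfur clusters, had higher means in KO hearts. Slc25a37, the isoform of red cell precursors, had 743, 448, 1391 and 470.3 in KO hearts, against 281, 479, 525 and 316 in WT hearts. The groups overlapped, and KO replicate 3 stood far above the other hearts (log2 fold change 0.82 with a standard error of 0.32, trended adjusted p = 0.307). Without KO replicate 3 the log2 fold change was 0.48. Slc25a28, the isoform of other tissues, had 898 to 993 in KO and 773 to 968 in WT hearts (log2 fold change 0.13, trended adjusted p = 0.643).
Markers of red cells and their precursors were set beside Slc25a37. All 5 measured of 11 listed markers had a higher mean log2 signal in KO hearts, but 2 of them, Hba-a1 and Epb42, were near background. The mean signal of Hba-a1 on the linear scale was lower in KO hearts (9.9 against 13.4). The summed signal of the 5 markers, in which Alas2 and Bpgm are the brightest, was 5527, 2462, 8520.4 and 2449.9 in KO hearts, against 2377, 3258, 2413 and 1512 in WT hearts. KO replicates 3 and 1 were highest and second highest in both the marker sum and Slc25a37. Among the other hearts the order differed, with Slc25a37 highest in WT replicate 3 and the marker sum highest in WT replicate 2. Alas2, the first enzyme of heme synthesis in red cells, had 2428, 910.3, 3594 and 1014 in KO hearts, against 860.3, 1317, 939.9 and 553 in WT hearts. The probeset used for Hba-a1, an alpha globin gene, was near background in all hearts, and no marker was at 0. Probesets that name several genes were left out, so the value of Hba-a1 does not show that globin RNA was absent. The part of red cells in the values of Slc25a37 was not tested.

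**Figure D4:**
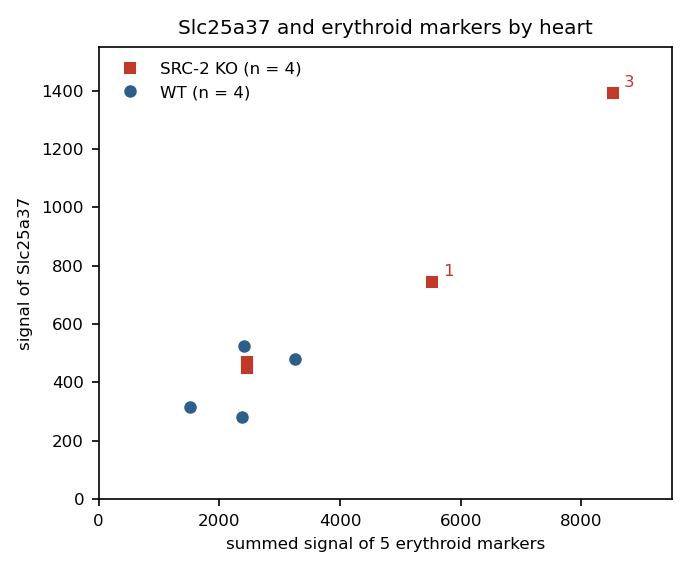
Signal of Slc25a37 against the summed signal of 5 erythroid markers, 1 point per heart, squares for SRC-2 KO and circles for WT (n = 4 each), both axes linear from 0. KO replicates 3 and 1, numbered in the plot, have the highest values on both axes, and the other 6 hearts are lower on both.

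Genes of iron-sulfur cluster and heme synthesis also had higher means in KO hearts, in 10 of 10 measured. Their median was 0.22 on the log2 scale, and none passed in either limma fit. Of all genes 46.9% had a higher mean in KO hearts, and 68.8% of those in the brightest bin. Nfs1, the cysteine desulfurase that supplies sulfur to the clusters, had 5560.2, 6412, 6783 and 6371 in KO hearts, against 5109, 4514, 5040.4 and 4878 in WT hearts, with no overlap (log2 fold change 0.36, trended adjusted p = 0.103). Isca1 and Glrx5, which pass clusters on, had log2 fold changes of 0.31 and 0.28 (trended adjusted p = 0.253 and 0.276).

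Slc25a39, a carrier that brings glutathione into the matrix, was higher in every KO heart. Its signal was 23085, 17373, 21983 and 18262 in KO hearts, against 17016, 16356, 15623 and 15605 in WT hearts. The lowest KO heart lay just above the highest WT heart (log2 fold change 0.31 with a standard error of 0.11, adjusted p = 0.235 in the trended and 0.481 in the common-variance limma fit). The probeset used is one of the kind liable to cross-hybridise, and of the other 4 probesets 1 separated the genotypes, with 1347, 1344, 1358 and 1258 in KO hearts, against 1036, 872, 1082 and 1086 in WT hearts (log2 fold change 0.39). Slc25a40, the related gene, had a log2 fold change of 0.00. Genes of glutathione synthesis and reduction did not pass, their median being 0.11 on the log2 scale over 6 genes.

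Of the carriers of cofactors and vitamins, 3 of 6 measured had a higher mean in KO hearts. Slc25a51, the NAD carrier of mitochondria, had 5519, 5455, 5976 and 5592 in KO hearts, against 4824, 5366, 4922 and 5305 in WT hearts. The hearts did not overlap although the change was small (log2 fold change 0.14 with a standard error of 0.08, trended adjusted p = 0.478). Slc25a42, a carrier of coenzyme A and adenine nucleotides, had 723, 834, 949 and 491 in KO hearts, against 534, 513, 557 and 615 in WT hearts, and KO replicate 4 was the lowest of all 8 (log2 fold change 0.39 with a standard error of 0.18, trended adjusted p = 0.388). As the mean of both its probesets, the second of which is near background, its log2 fold change was −0.064. Slc25a26, which imports S-adenosylmethionine, Slc25a32, linked to folate and FAD, Slc25a16, linked to coenzyme A, and the peroxisomal Slc25a17 had log2 fold changes of −0.07, 0.05, −0.04 and −0.26.

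Members with no settled substrate included another gene whose hearts did not overlap. Slc25a46 lies in the outer membrane and is known for its part in the shape and fusion of mitochondria. Its signal was 5937, 6098, 6527 and 5238 in KO hearts, against 5078, 4875, 4825 and 4609 in WT hearts (log2 fold change 0.29 with a standard error of 0.09, adjusted p = 0.171 in the trended and 0.457 in the common-variance limma fit). Its second probeset had a log2 fold change of 0.27, with KO replicate 4 inside the WT range. Slc25a34 had 2997, 3064, 3115 and 2618 in KO hearts, against 2769, 1987, 2577 and 2478 in WT hearts (log2 fold change 0.27 with a standard error of 0.11, trended adjusted p = 0.311), so that only WT replicate 1 reached into the KO range. Slc25a35 and Slc25a53 had 0.22 and −0.03. Slc25a33 and Slc25a36, the pyrimidine nucleotide carriers, had log2 fold changes of 0.23 and −0.02.

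The relatives of the uncoupling proteins did not separate the genotypes. Slc25a14 had 34.1 to 128 in KO and 85.8 to 114 in WT hearts (log2 fold change −0.58, trended adjusted p = 0.625). Slc25a27, of brain, was near background, and Slc25a30 had a log2 fold change of 0.12. Among family members with other symbols, Ucp3, the uncoupling protein of muscle, fell in the trended limma fit, with 507, 731, 605 and 484 in KO hearts, against 1135, 1145, 1094 and 1502 in WT hearts (log2 fold change −1.07, adjusted p = 0.0154, and 0.22 in the common-variance limma fit). The call was lost without WT replicate 2 (trended adjusted p = 0.0706), as the mean of all probesets (0.0638), with signals under 50 set to 50 (0.14), under the random variance model test (0.218) and with each gene's own variance (0.244). Mtch2, an outer membrane relative, had a log2 fold change of 0.47 (trended adjusted p = 0.258).

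Machinery that carries these proteins into the inner membrane had higher means in KO hearts for 14 of 14 measured genes of the outer membrane translocase, the small chaperones and the inner membrane insertase, their median being 0.13 on the log2 scale. Of all genes 46.9% had a higher mean in KO hearts, and 68.8% of those in the brightest bin. None of the import genes passed in either limma fit. Tomm40, the channel of the outer membrane, had 1074 to 1623 in KO and 887 to 1097 in WT hearts (log2 fold change 0.44, trended adjusted p = 0.172). Timm8a1, a small chaperone, and Timm29, a subunit of the insertase, had log2 fold changes of 0.39 and 0.26 (trended adjusted p = 0.249 and 0.31). The pyruvate carrier subunit Mpc1 and the porins, with which many carriers share their substrates, had log2 fold changes of 0.08 to 0.29 over 4 genes.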

How the data were processed

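Signals were measured on 8 Affymetrix mouse arrays, 4 from SRC-2 KO and 4 from WT hearts. The authors deposited 1 intensity per probeset on a linear scale, 0.219 to 124739, and the arrays share 1 mean once 2% of values is trimmed at either end. The methods and the submitters' notes name RMA, Expression Console and Partek, but linear signals without a shared distribution are not RMA values, so log2 was taken with no further scaling. With no counts behind the values, precision rests on the number of arrays.

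Of 45101 probesets, 35890 were listed in the annotation, 34958 with 1 gene symbol, of which the brightest by mean log2 signal stood for each gene. One probeset naming Slc25a37 with another gene was left out. Genes with Slc25a symbols that the annotation did not list were not analysed here. KO minus WT was fitted in limma 3.58.1 (R 4.3.3) with and without a trend, and other probesets were compared by exact permutation. Figures used matplotlib 3.10.9 in Python 3.11.15.

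Genes were given heart by heart if they passed in either fit, if their hearts did not overlap, or if they were among the 12 with the smallest p in the trended fit. For partner lists, up to 3 genes with the smallest p were named, and Ncoa2 served as the label check. Other genes in the text were named after their values were seen. Members, groups and lists were chosen with earlier results of these data known. The fits were tested on simulated data with known changes. Alternatives were other variance models, probeset rules, scalings, a filter, a floor of 50, array weights, a replicate block and leaving out each heart.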

Additional observations from a re-analysis of the deposited data

Results flagged for a closer look

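Within a genotype, 3 of the 88 groups of 4 hearts held a heart whose gap to the nearest other was large against the range of its group on the log2 scale, where chance gives about 4.4, and all 3 were KO replicate 4. For Slc25a12 it had 7175 and the other KO hearts 8090.3 to 8276 (gap over range 0.841). For Slc25a24, an ATP-Mg/phosphate carrier, it had 755 and the others 427 to 448 (0.914). For Slc25a41 it had 67.9 and the others 2.08 to 3.53, all but the first near background (0.849). Across the brighter genes, KO replicate 4 correlated with the other KO arrays at a mean r of 0.974 and with the WT arrays at 0.976, a description over genes, which are not independent. Of the fat cell markers, it had the highest Ucp1 (672, other hearts 6.0 to 112) and Adipoq (1412, other hearts 282 to 686). Its summed signals of the adipocyte and brown adipocyte lists, 45095 and 50045, lay within the range of the other hearts. The part of tissue content in its values was not tested.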

How the results depend on the processing

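Among the genes with Slc25a symbols, the common-variance fit called 0 carriers, higher or lower, in every setting, and the trended fit called 0 lower in every setting. The trended fit called 1 carrier as higher, Slc25a22. The random variance model test and each gene's own variance, which replace that fit, called 0 (adjusted p = 0.316 in both for Slc25a22). With the mean of all probesets, signals under 50 set to 50, quantile normalization and array weights the trended fit called 0. Its adjusted p for Slc25a22 was then 0.119, 0.228, 0.0525 and 0.0711. Leaving out each heart gave 0 to 2 higher carriers, with 0 in 6 of the 8 fits, and 2, Slc25a22 and Slc25a11, without KO replicate 4. Over all genes it called 22 higher and 46 lower, 104 and 216 without KO replicate 4, 2 and 3 without WT replicate 2, and 0 and 2 with signals under 50 set to 50. Deviations of same-numbered hearts correlated at 0.064, −0.08, −0.019 and 0.108, where all pairings of a KO and a WT heart gave −0.127 to 0.143. These correlations over genes cannot show whether the labels' replicate numbers pair hearts by litter or batch. With the replicate block the trended fit called 2, Slc25a22 and Slc25a29 (adjusted p = 0.0481 for the second), and 0 in the common-variance fit. The count of genes with a higher mean was 26 to 33 in all settings and the family median 0.06 to 0.19. Of the 13 genes described heart by heart, Slc25a42 changed sign once, to −0.064 in both fits as the mean of all probesets, and of the other 31 genes, 16 changed sign in at least 1 setting. Signals near background limit Slc25a18, Slc25a27, Slc25a41, Slc25a48 and Slc25a54.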
